A study of Mus musculus with 12 samples.

Results

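The miRNAs described here are 6 of the 1087 mouse miRNA names with an annotated hairpin, and are best known from blood cells. Mir144, Mir451a and Mir486 are the erythroid members, and Mir142, Mir223 and Mir150 are the leukocyte members. A member was counted by its tags, the distinct insert sequences of at least 18 nt in each small RNA library, wherever a whole tag matched the member's hairpin exactly. In the 12 hippocampal libraries these tags held 58164 counts, which is 0.194% of the 30022027 reads that matched any miRNA hairpin. The erythroid members had 13771 counts and the leukocyte members 44393.

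Each library came from the hippocampus of an individual young male C57BL/6NCrl mouse. Of the mice 2 were untreated (NT) and the other 10 had received an electroconvulsive shock (ECS), which drives neurons of the whole brain to fire at once, with 2 mice killed at each of 5 times between 0.5 and 24 h later. The libraries form a first and a second time course of 6 libraries each, named by a suffix -1 or -2 (NT-1, 24h-2). The suffix is the replicate number in the sample labels. No treatment other than ECS separates the groups. The number of reads that matched a miRNA hairpin, used here as the depth, ranged from 439336 (6h-1) to 2219779 (24h-1) in the first time course and from 1321437 (6h-2) to 4282006 (NT-2) in the second. NT-1 stood apart from the other libraries in read length, with 51.4% of its miRNA reads at 18 or 19 nt. The main fold changes are therefore also given without it. The means of within-library ratios and of tag shares below include it. The sources used here do not say that blood was cleared from these brains, and blood in the vessels, blood cells in the tissue and expression by brain cells cannot be told apart in RNA from whole tissue. For each member, fewer cells of a type and less RNA per cell also cannot be told apart.

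Mature miRNAs are cut from the arms of a short hairpin RNA and pair with target mRNAs mainly through the seed, bases 2 to 8. miR-144 and miR-451a are made from 1 primary transcript that the erythroid factor GATA1 induces, and miR-486 lies in the ankyrin gene Ank1, which red cells use for their membrane skeleton. miR-142 is expressed throughout the blood lineages and in microglia, miR-223 marks myeloid cells, foremost neutrophils, and miR-150 marks mature lymphocytes. miR-451a is unusual in that its hairpin is too short for Dicer and is cut by Argonaute 2, so that the mature RNA runs into the loop.

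Of the 6 members, 5 had mature sequences in the RefSeq table used here (GRCm38.p6), 8 sequences in all. They are shown because starts and ends of tags are compared with them below. Tags were counted wherever they matched a hairpin, and miR-486 and miR-150-5p have no sequence shown. The seed is in capitals, and no other RefSeq mouse mature miRNA had any of these 8 seeds.
miR-144-5p: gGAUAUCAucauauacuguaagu
miR-144-3p: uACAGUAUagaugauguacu
miR-451a: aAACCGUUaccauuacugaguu
miR-142-5p: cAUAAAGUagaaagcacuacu
miR-142-3p: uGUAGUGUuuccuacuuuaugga
miR-223-5p: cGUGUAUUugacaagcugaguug
miR-223-3p: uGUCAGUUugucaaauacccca
miR-150-3p: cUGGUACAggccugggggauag

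All 6 hairpins lie on the plus strand of GRCm38. Mir144 (chr11:78073005-78073070) and Mir451a (chr11:78073170-78073241) are separated by 99 bases. Mir142 (chr11:87756864-87756927) lies in an intron of its host lincRNA Mir142hg, and Mir486 (chr8:23142555-23142682) in an intron of Ank1. Mir223 (chrX:96242817-96242926) overlaps an exon of F630028O10Rik, and Mir150 (chr7:45121757-45121821) overlaps no other annotated gene. The antisense hairpin Mir3107 covers part of Mir486, and 5643 of the 5644 counts of miR-486-5p matched both hairpins, so the values given for miR-486-5p cannot be assigned to one strand. The antisense hairpin Mir142b had 1 count and Mir451b had none.

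miR-142-5p, from the leukocyte group, was the most abundant member in 10 of the 12 libraries and held 44253 counts. Levels are given as RPM, the counts scaled to 1000000 miRNA reads of the same library. In the first time course the lowest level was 993 RPM, the median 5034 and the highest 9787. In the second time course the lowest level was 157, the median 413 and the highest 2316. All first-course libraries except 24h-1 lay above all second-course libraries, and at each time point the first-course library was the higher of the pair. The 3′ arm of the same hairpin had 8 counts, 0 of them in the first time course.

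The other leukocyte members were near the limit of detection. miR-150-3p had 80 counts, with 0 in NT-1, 3h-1, 6h-1 and 6h-2 and the highest count of 24 in NT-2, and miR-150-5p had 33. miR-223 had 19 counts over both arms, 4 of them in the first time course. NT-1 had 0 counts of each arm of miR-223, which allows up to 2.81 RPM (3 counts, counting error only), and NT-2 had 2 counts of each. miR-142 therefore made up at least 96.3% of the leukocyte counts of every library.

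Among the erythroid members, miR-144-3p had the widest range. First-course libraries held 144 to 1912 RPM, with a median of 493, and second-course libraries between 5.79 and 129 RPM, with a median of 21.2. In RPM, no second-course library reached any first-course library. miR-144-5p, from the other arm, ranged from 35.6 to 514 RPM (median 58.0) in the first and from 11.5 to 25.0 RPM (median 21.1) in the second, again with no overlap. In RPM, 2 of the 7 member arms with enough counts to test, both of miR-144, were lower in all second-course libraries than in all first-course ones, as were 11.7% of the 469 arms tested in all. After TMM scaling, which adjusts for the make-up of each library and was compared after the data were seen, both arms overlapped: 0 of the 7 member arms and 7.04% of the 469 arms were lower in all second-course libraries. On that scale 6h-2 was at 7.64 log2 CPM of miR-144-3p, above 3h-1 (7.54) and 24h-1 (7.23).

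miR-451a-5p is cut from the same primary transcript. Its level ran from 4.68 to 63.7 RPM (median 30.8) in the first time course and from 22.7 to 102 RPM (median 44.5) in the second, with wide overlap. The lowest level, 5 counts, was in NT-1, the library with the highest level of miR-144-3p. In RPM, the highest first-course level of miR-451a-5p was in 6h-1 (28 counts). That library also held the highest level of miR-144-5p (514 RPM) and the second highest of miR-144-3p (1129 RPM). After TMM scaling miR-451a-5p was higher in 0.5h-1 (5.63 log2 CPM) than in 6h-1 (5.53). miR-486-5p also overlapped between the time courses, at 54.3 to 317 RPM (median 209) in the first and 103 to 248 RPM (median 169) in the second, and was lowest in NT-1 as well. miR-486-3p was sparse, with 159 counts, of which 24 were in the first time course.

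**Figure D1:**
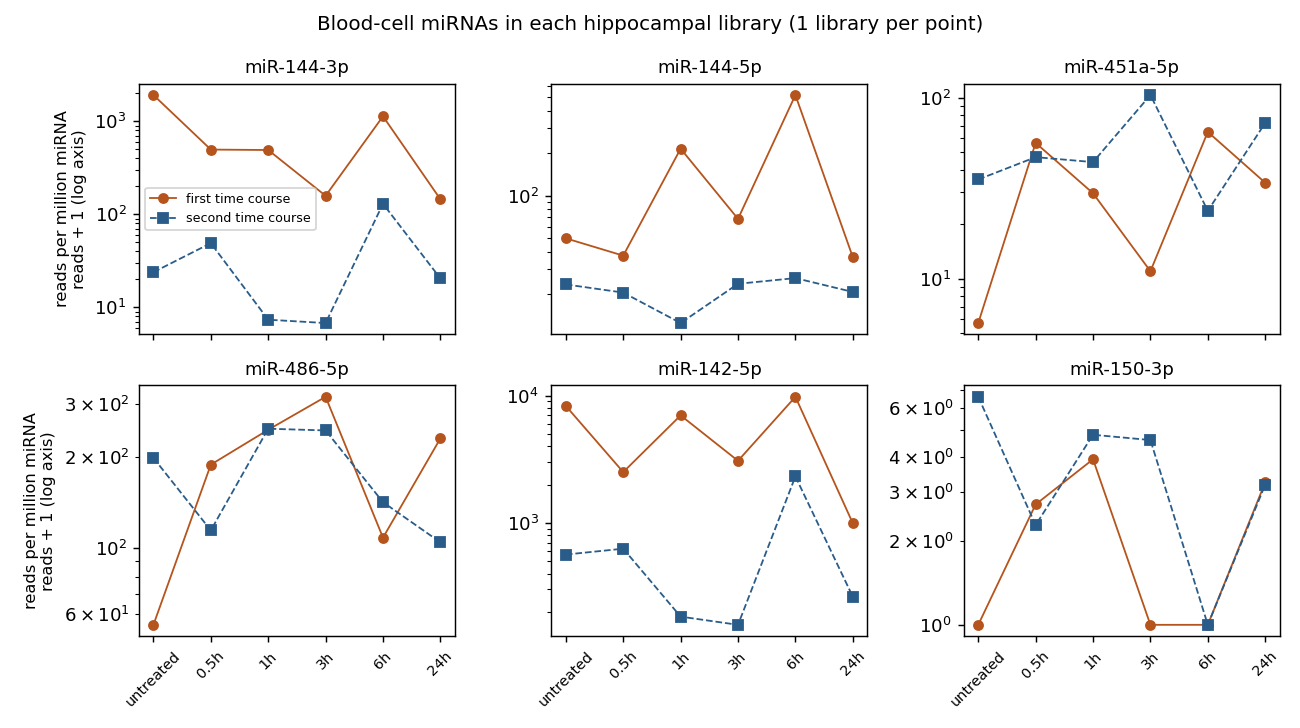
Level of 6 member arms in each of the 12 libraries, as RPM plus 1 on a log axis, against time after ECS, with 1 library per point and a colour per time course. miR-144-3p and miR-144-5p lie higher in all first-course libraries than in any second-course library on this RPM scale, though not after TMM scaling, miR-142-5p is higher at every time point, and miR-451a-5p and miR-486-5p overlap.

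The make-up of the erythroid counts differed accordingly. miR-144 made up 97.1% of them in NT-1 and 90.6% in 6h-1, but 5.68% in 1h-2 and 7.44% in 3h-2. miR-486 made up 80.6% of the erythroid counts in 1h-2 and 2.69% in NT-1. miR-451a made up between 0.232% (NT-1) and 32.6% (24h-2).

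The time courses were compared with edgeR's quasi-likelihood test over all 469 arms that had at least 10 counts in 2 or more libraries, with the time point as a covariate. Of the 12 member arms 7 passed this minimum, and 2 of the 7 were called at an adjusted p under 0.05, both lower in the second time course. Over all arms 32.4% were called, 12.4% as lower in the second time course. The called arms were miR-144-3p and miR-142-5p, 1 from each class.

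miR-144-3p was 14.1-fold lower in the second time course, a log2 fold change of -3.82 ± 0.65 (SE, edgeR adjusted p = 0.0019). miR-142-5p was 6.07-fold lower, a log2 fold change of -2.60 ± 0.58 (SE, edgeR adjusted p = 0.0062). Both levels were lower in the second time course at 6 of 6 time points, and without NT-1 the log2 fold changes were -3.45 (edgeR adjusted p = 0.0048) and -2.49 (edgeR adjusted p = 0.016). miR-144-5p had a log2 fold change of -1.50 ± 0.56 (SE) and did not pass (edgeR adjusted p = 0.056).

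The remaining tested arms had fold changes in the other direction, and none passed. The log2 fold change was 1.59 ± 0.63 (SE) for miR-451a-5p (edgeR adjusted p = 0.067), 2.42 ± 0.97 for miR-486-3p (edgeR adjusted p = 0.067), 1.71 ± 1.00 for miR-150-3p (edgeR adjusted p = 0.19) and 0.58 ± 0.54 for miR-486-5p (edgeR adjusted p = 0.41). The median over the 7 arms was 0.58, beside 0.29 over all 469 arms. Without TMM scaling (total miRNA count only) the median of all arms moved to -0.30, the calls from 94 higher and 58 lower to 49 higher and 113 lower, and the value of miR-486-5p to -0.04, while miR-144-5p then passed at -2.09 (edgeR adjusted p = 0.019). These p-values measure the spread between libraries of 1 mouse each, and library preparation, sequencing run and the mice of a time course cannot be told apart.

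**Figure D2:**
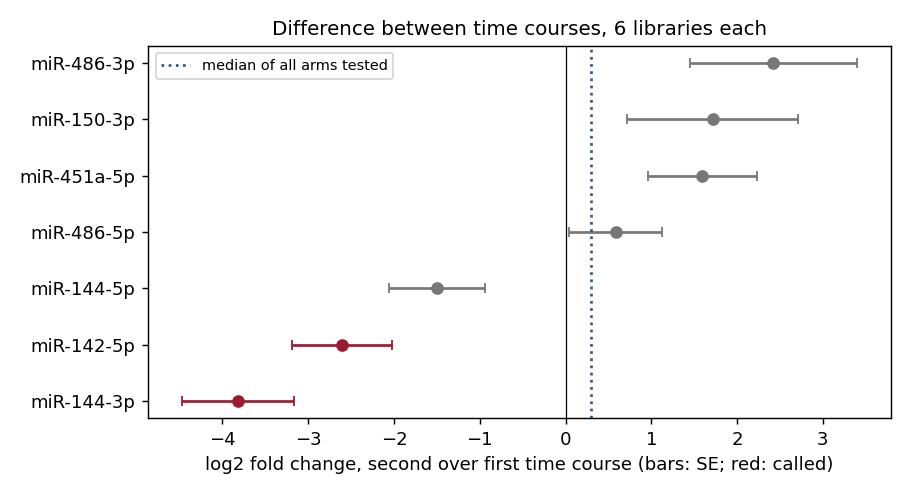
Log2 fold change of the 7 tested member arms, second over first time course, with SE bars from the edgeR fit to 6 libraries per time course; called arms are red and the dotted line is the median of all 469 arms. miR-144-3p (-3.82) and miR-142-5p (-2.60) lie to the left, miR-486-3p (2.42) farthest to the right.

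Within a library, the ratio of 2 members needs no scaling, but read lengths still enter it. Tags of 18 or 19 nt were 91.1% of miR-144-3p and 8.17% of miR-451a-5p in the first time course. In the second they were 69.0% and 1.45%. The 5 counts of miR-451a-5p in NT-1 were all of 18 nt, and the ratio was not taken from longer tags alone. The count of miR-144-3p for each count of miR-451a-5p was 408 in NT-1 and between 4.38 and 17.7 in the 5 ECS libraries of the first time course. In the second time course it ran from 0.0565 (3h-2) to 5.67 (6h-2). As a log2 ratio with 0.5 added to each count, the mean was 4.33 ± 2.20 for first-course and -1.13 ± 2.32 for second-course libraries (SD, n = 6 each), and the second-course library had the lower ratio in 6 of 6 pairs. An exact two-sided permutation test, which swaps the members of each pair in all 64 ways, gave p = 0.031, the smallest p possible here, and an adjusted p of 0.039 over 10 such measures. The within-library ratios, this one included, were chosen after the counts were seen, and several of the 10 measures overlap. Their p-values therefore describe the values seen and do not test a question set beforehand.

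The arms of miR-144 did not keep a fixed ratio either. The count of miR-144-3p for each count of miR-144-5p was 39.3 in NT-1, 13.6 in 0.5h-1 and 0.255 in 3h-2. Its log2 mean was 2.43 ± 1.72 for first-course and 0.14 ± 1.52 for second-course libraries (SD, n = 6 each), with a lower second-course value in 5 of 6 pairs (same exact permutation test, p = 0.062, adjusted p = 0.069). The log2 ratio of miR-486-5p to miR-451a-5p averaged 2.79 ± 1.44 and 1.79 ± 0.88 (SD, n = 6 each), and this difference did not pass (exact permutation p = 0.25).

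The ends of the tags moved with the time courses as well. The following tags are shown because they hold most counts of miR-142-5p and miR-144-3p; capitals mark bases 2 to 8 of each tag.
miR-142-5p from hairpin base 2: cCCATAAAgtagaaagcact
miR-142-5p from hairpin base 4: cATAAAGTagaaagcacta
miR-144-3p of 18 nt: tACAGTATagatgatgta

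The most frequent tag of miR-142-5p, with 17327 counts (39.2% of the arm), began at hairpin base 2, upstream of the RefSeq start at base 4, and so had another seed, CCAUAAA. In RefSeq that seed belongs to miR-142b. The tag from base 4 shown above had 9669 counts (21.8%). Tags from base 2 made up 65.8% ± 11.6 of miR-142-5p in first-course and 82.0% ± 3.57 in second-course libraries (SD, n = 6 each), with the higher share in the second-course library of 6 of 6 pairs (exact permutation p = 0.031, adjusted p = 0.039). The lowest share was 51.3% in NT-1 (Wilson 95% interval 50.2% to 52.3%) and the highest 87.0% in 1h-2 (84.3% to 89.3%).

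Of miR-144-3p, 76.7% of all counts were the 18-nt tag, which is 2 bases shorter than the RefSeq sequence and the shortest length kept in the files. Tags of 18 nt made up 75.5% ± 9.29 of miR-144-3p in first-course and 53.9% ± 12.6 in second-course libraries (SD, n = 6 each), and the share was lower in the second-course library of 6 of 6 pairs (exact permutation p = 0.031, adjusted p = 0.039). Any miR-144-3p molecule trimmed below 18 nt was not counted.

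Read length differed over all miRNAs. Outside NT-1, reads of 18 or 19 nt made up between 4.54% and 16.9% of miRNA reads in the first-course libraries and between 0.910% and 3.78% in the second time course. Reads of 22 nt or more made up 1.25% to 13.5% in the first and 29.0% to 49.4% in the second. Counted only from tags of 20 nt or longer, a choice made after the lengths were seen, miR-144-3p had a log2 fold change of -2.60 ± 0.67 (SE, edgeR adjusted p = 0.0089) and miR-142-5p of -2.30 ± 0.72 (SE, edgeR adjusted p = 0.024). The difference of miR-144-3p was thus smaller without its shortest tags, and both arms still passed.

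By contrast, miR-451a-5p began at 1 place: 98.6% of its counts started at hairpin base 17, the RefSeq start. Its tags ended at several bases, with 34.4% ending after 20 nt, 28.4% after 22 nt and 24.3% after 23 nt, the last 1 base beyond the RefSeq end. miR-486-5p started at 1 base in 99.7% of its counts, and 64.5% of them were 21 nt long. Tags that followed a hairpin for 18 nt and then left it, which hold added bases and sequencing errors alike, were 20.6% of miR-486-5p, 9.76% of miR-142-5p, 11.2% of miR-144-3p and 13.2% of miR-451a-5p.

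**Figure D3:**
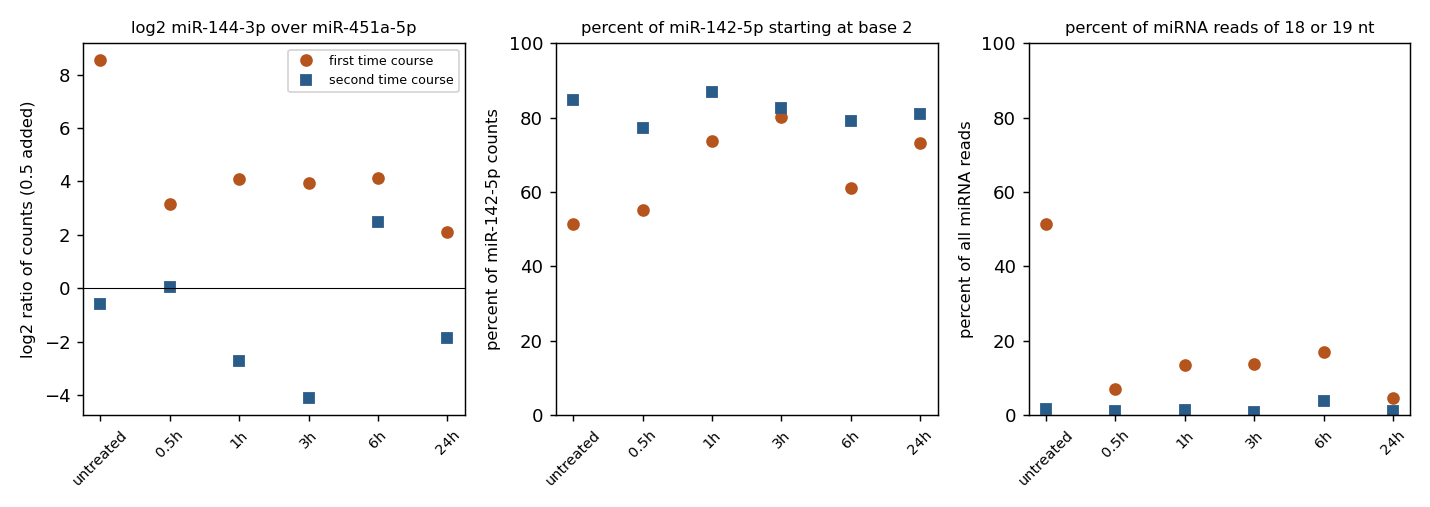
For each library, by time point and time course: the log2 ratio of miR-144-3p to miR-451a-5p counts (left), the percent of miR-142-5p counts that began at hairpin base 2 (middle) and the percent of all miRNA reads of 18 or 19 nt (right). NT-1 has the highest ratio (8.54), the lowest share of base 2 starts (51.3%) and the highest share of short reads (51.4%).

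Whether members of a class moved together was asked within each time course, over its 6 libraries, for the most abundant arm of each member that passed the minimum (log2 CPM, TMM-scaled). This gave 10 pairs in each time course and 20 relations in all. None passed after Benjamini-Hochberg adjustment: 4 of 20 had an unadjusted permutation p under 0.05 by Pearson's r and 2 by Spearman's rho.

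For the erythroid members these tests showed neither joint change nor its absence. Over their 3 pairs the median r was -0.32 in the first and -0.46 in the second time course, beside 0.04 and 0.02 over all pairs of the 469 arms. miR-144-3p and miR-451a-5p, from neighbouring hairpins, had r = -0.32 and rho = -0.09 in the first time course (exact permutation p = 0.54 and 0.92, adjusted p = 0.57 and 0.92). In the second they had r = -0.48 and rho = -0.37 (exact permutation p = 0.30 and 0.50, adjusted p = 0.56 and 0.71). Without the 2 libraries farthest from the median of miR-144-3p, r was 0.43 in the first and -0.75 in the second. In the first time course these were NT-1 and 6h-1, and the sign changed without them. NT-1 was highest in miR-144-3p and lowest in miR-451a-5p (10.3 and 1.99 log2 CPM). By contrast, 6h-1 was high in both (9.66 and 5.53), so the negative sign came with NT-1 and not with 6h-1.

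miR-144-3p and miR-486-5p had r = -0.92 and rho = -0.89 in the first time course (exact permutation p = 0.0083 and 0.033, adjusted p = 0.083 and 0.33), and r = -0.61 without NT-1 and 6h-1. In the second time course r was -0.46 and rho -0.77 (exact permutation p = 0.36 and 0.10, adjusted p = 0.56 and 0.34), and r = -0.96 without 1h-2 and 6h-2. The sign was negative throughout. miR-451a-5p and miR-486-5p had positive r in both, 0.42 and 0.31 (exact permutation p = 0.41 and 0.52, adjusted p = 0.56 and 0.57), with rho = 0.14 in each (exact permutation p = 0.803, adjusted p = 0.845), and r of -0.62 in each without the 2 farthest libraries.

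The pair with the highest r joined the classes. miR-144-3p and miR-142-5p had r = 0.72 and rho = 0.77 in the first time course (exact permutation p = 0.11 and 0.10, adjusted p = 0.35 and 0.34), and r = 0.33 without NT-1 and 6h-1. In the second they had r = 0.97 and rho = 0.94 (exact permutation p = 0.0042 and 0.017, adjusted p = 0.083 and 0.33), and r = 0.87 without 1h-2 and 6h-2. Over the 6 pairs between classes the median r was -0.0026 in the first and 0.06 in the second time course, since the other pairs ran from -0.87 to 0.47. The leukocyte members could be compared only as miR-142-5p with miR-150-3p, which had 0 counts in 3 first-course and 1 second-course libraries: r was -0.82 and -0.84 (exact permutation p = 0.033 and 0.051, adjusted p = 0.17 and 0.21), and counts this low carry no finding.

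**Figure D4:**
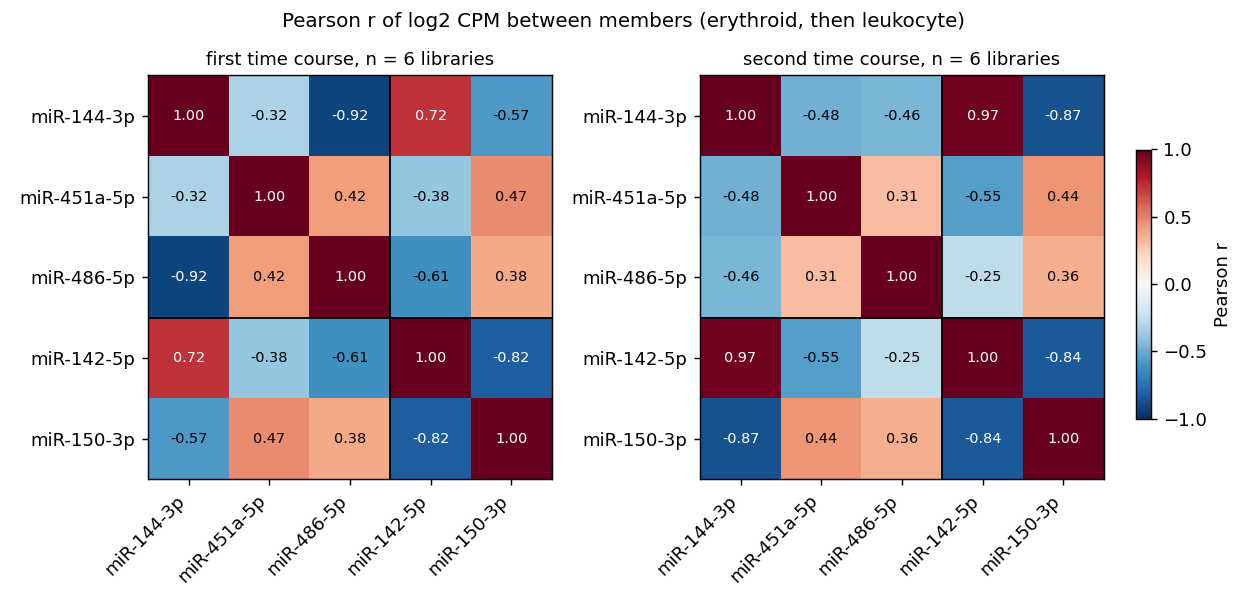
Pearson's r of log2 CPM between the most abundant arms of the members, within the first (left) and the second (right) time course, over 6 libraries each; black lines separate erythroid from leukocyte members. The highest value is that of miR-144-3p with miR-142-5p (0.72 and 0.97), a pair between the classes, while miR-144-3p and miR-451a-5p have -0.32 and -0.48.

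The arms most like a member were sought among the other 468 tested arms by the mean of the r in both time courses, over 6 libraries each. Those most like miR-144-3p were miR-301-3p (mean r 0.97), miR-551b-3p (0.97) and miR-384-3p (0.905), and those most like miR-142-5p were miR-322-5p (0.95), miR-551b-3p (0.91) and miR-126a-5p (0.90). miR-451a-5p was most like miR-501-3p (0.86), miR-212-5p (0.83) and miR-421-3p (0.82). miR-486-5p was most like miR-3107-5p, which shares its tags, then miR-129-3p (0.94) and miR-379-5p (0.915). The sparse miR-150-3p was most like miR-5128-3p (0.97), miR-301-5p (0.90) and miR-23b-5p (0.90). No other member was among the 3 arms most like any member. The compared arms were counted in the same libraries, so the depth and read lengths of a library enter both values of a pair.

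Other miRNAs known from blood, vessels and brain cells were read beside the members. Over all 469 arms 94 were called higher and 58 lower in the second time course (32.4% in all, 12.4% lower). Of 9 arms of miRNAs that are abundant in red cells but broadly expressed, 4 were called higher in the second time course, among them miR-16-5p (log2 fold change 2.40 ± 0.64, SE, edgeR adjusted p = 0.013) and miR-92-3p (3.40 ± 0.61, SE, edgeR adjusted p = 0.0020), and 1 lower, miR-22-3p (-1.65 ± 0.51, SE, edgeR adjusted p = 0.024). Of 7 arms of other immune-cell miRNAs, 2 were called higher, miR-342-3p and miR-21a-5p. Calls in both directions thus occurred among the arms of these 2 lists. How much of their counts came from blood was not tested.

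Of 6 arms of vessel wall miRNAs, 2 were called lower in the second time course, miR-143-3p (-2.59 ± 0.48, SE, edgeR adjusted p = 0.0022) and miR-145a-3p (-2.02 ± 0.46, SE, edgeR adjusted p = 0.0062). The summed level of this list was 63027 to 144673 RPM in the first and 5645 to 16493 RPM in the second time course. Most of it was miR-143-3p, with a mean of 94838 RPM in the first and 10554 RPM in the second. The arms not called were miR-126a-3p at 1.30, miR-126a-5p at -1.21, miR-143-5p at -1.03 and miR-145a-5p at -0.07 (edgeR adjusted p = 0.090, 0.065, 0.40 and 0.95). Of 10 neuronal arms, 1 was called lower and none higher, and their sum lay between 60755 and 312171 RPM over the 12 libraries. The sum shows that the list as a whole was present throughout, not that each of its arms was. Of the oligodendrocyte arms 0 of 4 were called and of the choroid plexus arms 1 of 2, as higher, and the part of any of these lists in the members' values was not tested.

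After ECS, no member arm was called against the untreated libraries at any time. With 2 libraries per time point, edgeR called 0 of 469 arms (0.0%) at each of the 5 times and for the mean of all times, with 2 to 10 arms at an unadjusted p under 0.05 at single times and 24 for the mean. DESeq2 called 1 arm at 0.5 h, 2 at 3 h, 1 for the mean and none at 1, 6 or 24 h. In none of these fits was a member arm called.

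The untreated libraries themselves lay far apart. miR-142-5p was at 8296 RPM in NT-1 and 563 in NT-2, and miR-144-3p at 1912 and 22.9. For the mean of all times after ECS the log2 fold change was -1.94 ± 1.29 (SE) for miR-144-3p and -0.76 ± 1.11 for miR-142-5p (edgeR adjusted p = 1.00 for both). Without NT-1 these became 2.80 and 1.60. This fit has no term for the time course, so ECS libraries of both courses were then set against NT-2 alone. The gap between the time courses thus enters those values, and they do not show the direction within a time course. With the time course as a replicate block and all libraries kept, the values were -1.12 ± 0.72 and -0.46 ± 0.67 (SE, edgeR adjusted p = 0.78 and 0.88). Without the block, miR-451a-5p had 1.28 ± 1.11 (SE), miR-144-5p 1.00 ± 1.02 and miR-486-5p 0.62 ± 0.85 (edgeR adjusted p = 1.00 for each). Leaving out 1 library moved these values: miR-451a-5p was at 0.44 without NT-1 and 3.98 without NT-2, and miR-486-5p at -0.12 and 2.43. miR-144-5p ranged from 0.50 (without 1h-1) to 1.26 (without NT-1), and was at 0.52 without 6h-1.

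At single times, in the fit without the block, the member arm nearest to the threshold before adjustment was miR-144-5p at 6 h. Its log2 fold change was 2.83 ± 1.31 (SE, edgeR adjusted p = 0.99). It was at 514 RPM in 6h-1 and 25.0 RPM in 6h-2, against 48.7 in NT-1 and 22.4 in NT-2. Both libraries at 6 h were thus above the untreated library of their time course, by far less in the second. With the time course as a replicate block the log2 fold change was 2.23 ± 0.96 (SE, edgeR adjusted p = 0.66), and the block called 0 arms at every time.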

How the data were processed

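The authors deposited, for each library, raw counts of every distinct tag, after adapter removal with their miR-Intess pipeline and before alignment; reads came from an Illumina Genome Analyzer IIx, from RNA of about 18 to 24 nt per the labels. PCR without molecular identifiers means that intervals and floors cover counting error only.

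Tags were matched here, whole and without mismatch, to 1174 GENCODE M21 hairpins. In the fits a tag shared by several miRNAs was split equally; member levels are given in full. Counts were fitted with edgeR 4.0.16 (TMM, quasi-likelihood, Benjamini-Hochberg; SE from the F statistic); DESeq2 1.42.0 was an alternative. The ECS fit had 6 groups of 2 libraries. Scripts were tested on simulated data. Log2 CPM used a prior count of 2. Named arms were both arms of the members with antisense partners, the listed cell type miRNAs, and the 3 arms most like each member. Members and lists were chosen with earlier results of these data known, and the within-library ratios after the counts were seen. The suffix used here is the replicate number of the labels. In the study's text the suffix marks the time course, which pairs libraries. By the labels, deviations from the group means correlated at 0.31 to 0.79 in all 15 pairs of first-course libraries. For the untreated pair, the study's table of library composition has the larger known miRNA count under NT-1. Here NT-2 had the larger number of miRNA reads (4282006, against 1067558 in NT-1). The NT-1 named here may thus be the study's NT-2. No 2 libraries of a group were duplicates.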

Additional observations from a re-analysis of the deposited data

Results flagged for a closer look

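Within each time course, the RPM level of each tested member arm was checked for a single library far from the other 5, in 14 sets of 6 libraries. Chance sets off this check in about 1 of 20 sets only where levels are normally distributed, which was not tested. The check was made on RPM and not on a log scale, so the number of marks cannot be set against that rate. It marked 3 values. miR-142-5p was at 2316 RPM in 6h-2, against 626 RPM in the next highest library of the second time course. miR-144-3p was at 129 RPM in 6h-2, against 48.0 in the next highest. miR-144-5p was at 514 RPM in 6h-1, against 214 in the next highest library of the first time course. Both 6 h libraries had the fewest miRNA reads of their time course, 1321437 and 439336, and the part of depth in these values was not tested.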

How the results depend on the processing

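Depth limits miR-223, miR-150 and the minor arms, whose counts are near 0, and 2 libraries per time point limit what could be called after ECS. The cause of the changes below was not tested. The calls of miR-144-3p and miR-142-5p between the time courses held under every alternative run, with log2 fold changes of -4.42 to -2.60 and -3.21 to -2.04, and without any 1 library (-4.31 to -3.43 and -3.07 to -2.28). miR-144-5p, miR-451a-5p and miR-486-3p passed under some alternatives, all 3 under DESeq2. The number of arms called was 92 to 157 without 1 library (92 without 1h-1).

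No member arm was called after ECS under any alternative. The count of arms called for the mean of all times was 0 to 1 without 1 library, 5 with no filter on low counts, 1 with DESeq2 and, as added alternatives, 1 with DESeq2 and the replicate block and 1 with the block and tags of 20 nt or longer. At single times it was 1 (0.5 h) and 2 (3 h) with DESeq2, 1 (3 h) with no filter, and 2 (0.5 h), 5 (3 h) and 3 (6 h) with DESeq2 and the block. The edgeR fit with the replicate block called 0 arms at each time and changed no call. Fits without 1 library had no block, so leaving out NT-1 or NT-2 set the other against the ECS libraries of both time courses. For the mean after ECS they gave log2 fold changes of -1.69 to 1.60 for miR-142-5p, -3.00 to 2.80 for miR-144-3p and -0.12 to 2.43 for miR-486-5p, with the sign reversed without NT-1. For miR-150-3p they gave -2.61 to 4.33 and for miR-486-3p -1.93 to 5.89, with the sign reversed without NT-2. It also reversed for miR-144-3p with the block and tags of 20 nt or longer (0.083). Between time courses miR-486-5p reversed with total miRNA count only (-0.043).

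The median r moved most for miR-142-5p with miR-150-3p in the first time course, to -0.48 with total miRNA count only, -0.73 with DESeq2 size factors, -0.66 with tags that match 1 miRNA, -0.29 with the first 18 nt and -0.68 with tags of 20 nt or longer. Within the erythroid members it moved to -0.14, -0.16 and -0.068 in the first time course (total count, tags that match 1 miRNA, 20 nt or longer) and to -0.67 in the second (total count). Between classes it moved to 0.14, -0.076 and -0.072 in the first (total count, first 18 nt, 20 nt or longer) and to -0.074 and -0.030 in the second (tags that match 1 miRNA, first 18 nt). Without 1 library the median r ran from -0.61 to -0.20 (erythroid), -0.10 to 0.028 (between) and -0.93 to -0.73 (leukocyte) in the first, and from -0.51 to -0.24, -0.12 to 0.086 and -0.97 to -0.35 in the second time course. The mean level of miR-486-5p fell from 183 RPM to 75.7 RPM of accepted reads and to 0.020 RPM with tags that match 1 miRNA only.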
